A study of Mus musculus with 26 samples.

Results

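The livers described here came from mice with a homozygous knockout (KO) of Mtarc1 that had been fed CDAHFD, a choline-deficient high-fat diet whose protein is replaced by defined amino acids, for 2 weeks (8 libraries), and from wildtype (WT) mice on control chow (5 libraries). Together these were 13 of the 26 liver libraries of the series, and they were taken by their titles, without use of any measured value. The comparison asks which differences between chow and CDAHFD are seen in livers labelled as homozygous for the loss of Mtarc1, with the wildtype CDAHFD and heterozygous libraries left aside. Both the genotype and the diet differ between the groups, so their parts in any difference below cannot be told apart. The labels give liver as the tissue of every library. The sources used here do not name the knockout allele or the strain, sex and age of the mice. The labels number the samples but do not tie each number to its own mouse, and every p-value therefore reflects variation among these libraries, which may be technical.

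Mtarc1 encodes mitochondrial amidoxime reducing component 1 (mARC1), an enzyme of the outer mitochondrial membrane that carries a molybdenum cofactor and takes electrons from NADH through cytochrome b5 reductase 3 and cytochrome b5 type B. In people, coding variants of MTARC1 are associated with a lower risk of steatotic liver disease. Choline is needed to make phosphatidylcholine, which coats very-low-density lipoprotein (VLDL) particles, so that a liver short of choline exports less triglyceride and stores fat. Such diets are used in mice to bring on steatosis, inflammation with recruited macrophages, hepatocyte death with replacement by cell division, and scarring laid down by activated stellate cells.

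Levels are given as CPM, counts scaled to a common library size, with library sizes adjusted by the trimmed mean of M-values (TMM), and fold changes are log2 values of KO CDAHFD livers over WT chow livers from edgeR's quasi-likelihood fit, with their standard error (SE). A gene was called when its p-value, adjusted by Benjamini-Hochberg over all 16090 genes tested, was under 0.05, and every adjusted p below is from that fit unless another test is named. Library totals ran between 19.7 and 29.6 M estimated counts (M for mega).

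The targeted gene was checked first. Mtarc1 lay between 32.3 and 63.1 CPM (median 47.4) in the 8 KO CDAHFD libraries, against 311, 304, 347, 261 and 259 CPM in the 5 WT chow libraries. The groups did not overlap, and the KO level averaged 47.2 ± 10.1 CPM against 296 ± 37.2 CPM in chow (SD, n = 8 and 5; two-sided exact permutation test, p = 0.00155, the smallest that 1287 regroupings allow; adjusted over 6 library measures 0.00465). The KO level was 15.9% of the chow level (log2 fold change -2.65, SE 0.14, adjusted p = 1.43e-08), so reads were still assigned to the gene in every KO library. Mtarc2, which encodes the second mARC enzyme, lay between 273 and 379 CPM (median 307) in KO CDAHFD livers, against 366, 325, 335, 279.8 and 289 CPM in WT chow livers, and the groups overlapped throughout (exact permutation test, p = 0.884). The 95% interval of the Mtarc2 log2 fold change ran -0.25 to 0.22.

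Of 6 genes for the mARC enzymes and their electron donors 2 were called lower, Mtarc1 and Cyb5r3, and none higher. Cyb5r3, the reductase, fell to between 337 and 453 CPM (median 354) in KO CDAHFD livers, against 574, 528, 522, 528 and 498 CPM in WT chow livers (log2 fold change -0.51, SE 0.09, adjusted p = 0.00134). No KO library reached the lowest chow library for Cyb5r3. Among 9 genes of molybdenum cofactor synthesis and the other molybdoenzymes, 1 was called, Xdh, the xanthine dehydrogenase of purine breakdown (log2 fold change 0.42, SE 0.10, adjusted p = 0.00727), and the other 8 did not pass the test. The median over the cofactor list was -0.06 on the log2 scale and became 0.15 when raw library totals replaced TMM.

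**Figure D1:**
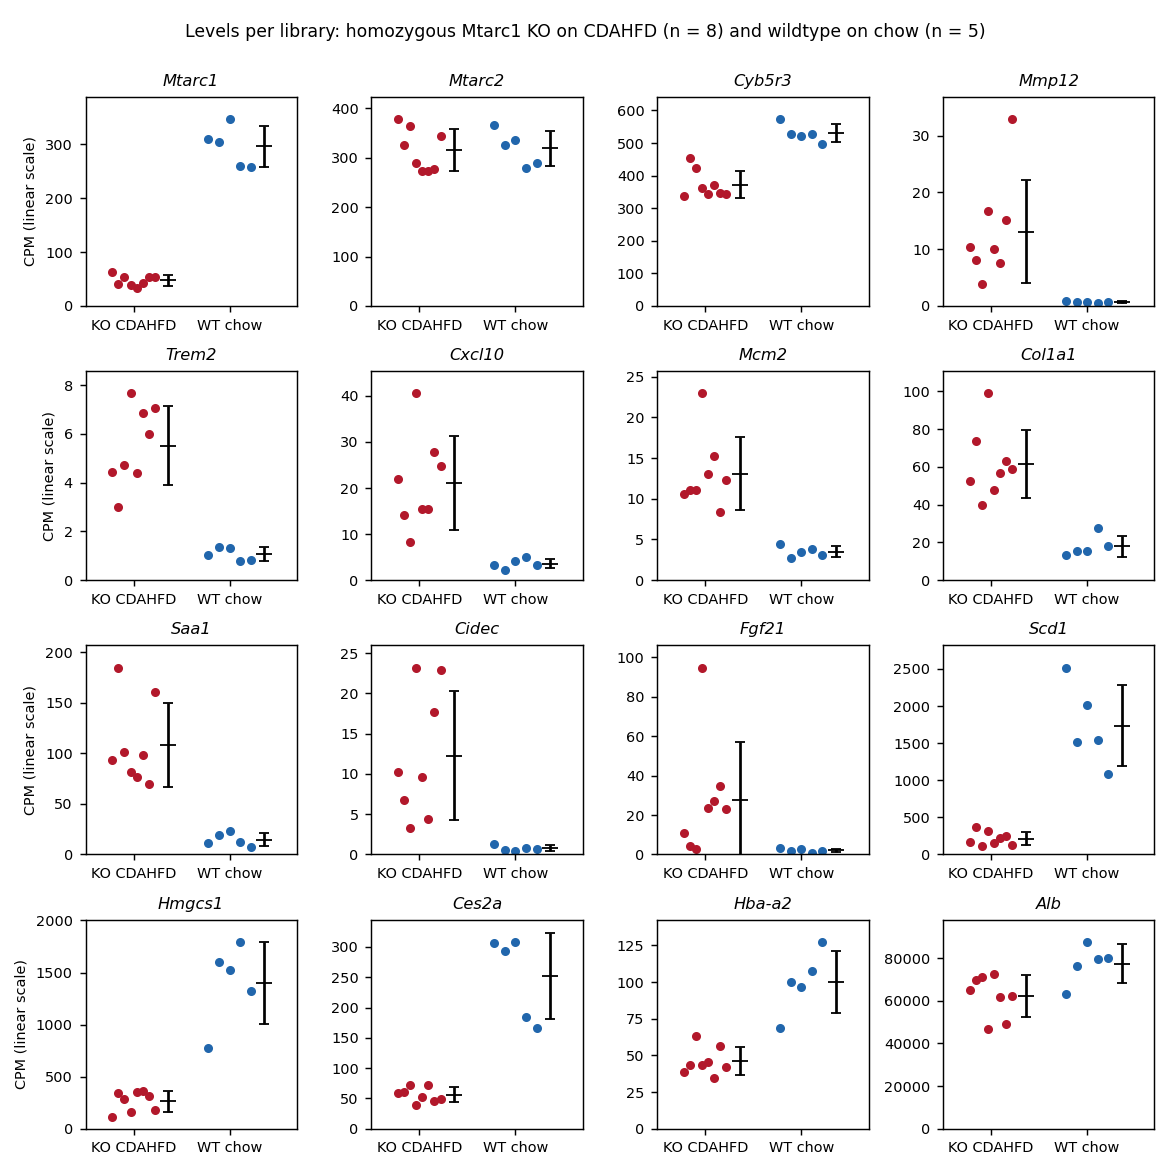
Levels of 16 genes in CPM on linear axes, each point 1 library, for KO CDAHFD (red, n = 8) and WT chow (blue, n = 5), with the mean and SD as black bars (the lower SD bar of Fgf21 is clipped at 0). Mtarc1, Cyb5r3, Scd1, Hmgcs1, Ces2a and Hba-a2 lie lower in each KO library than in any chow library, Mmp12, Trem2, Cxcl10, Mcm2, Col1a1, Saa1 and Cidec lie higher, and Mtarc2, Fgf21 and Alb overlap.

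Across the transcriptome 3859 genes were called, 24% of those tested: 2051 were higher in KO CDAHFD livers (12.7%) and 1808 lower (11.2%). The counts of called members in each list below are to be read beside these 2 shares. The first principal component of log2 CPM held 34.5% of the variance and separated all 8 KO libraries from all 5 chow libraries. In 1332 genes (8.28% of those tested) the groups did not overlap at all, 800 with every KO library above chow (4.97%) and 532 with every KO library below it (3.31%). Most calls were modest in size, with a median log2 fold change of 0.66 among the called rises and -0.52 among the called falls. A stricter test against a 2-fold change passed 96 genes (0.597%), of which 66 were higher (0.41%) and 30 lower (0.186%). Of the 12231 genes that were not called, 10360 had a 95% interval that lay wholly within a 2-fold change in either direction. Single chow libraries weighed on these counts: 2556 genes were called without chow library 5, the genes called lower numbered 1038 without chow library 5 and 1170 without chow library 4, and 53 genes passed the 2-fold test without chow library 2.

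The balance of rises and falls depends on the scaling. Raw library totals in place of TMM moved the median of all genes by 0.20 on the log2 scale and turned the calls into 4833 higher and 626 lower, 88.5% higher against 53.1% with TMM. The 20 most abundant genes held 24.5% ± 0.91 of the counts in KO CDAHFD livers and 29.5% ± 2.38 in WT chow livers (SD, n = 8 and 5; exact permutation test, p = 0.00155), and mitochondrially encoded transcripts held 9.29% ± 1.64 in KO CDAHFD livers and 13.1% ± 2.98 in WT chow livers (exact permutation test, p = 0.0171, adjusted over 6 measures 0.0342). The part of these shares in other results was not tested beyond the alternatives given in the closing section. Of the genes named below, Birc3, Ndufb5, Srebf2, Stat5b, Zbtb46 and 5 endothelial markers lost their calls with raw library totals, and Clec4f, Fn1, Hspa5 and Mcm7 were then called higher. Changes below are relative to the TMM scale.

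**Figure D2:**
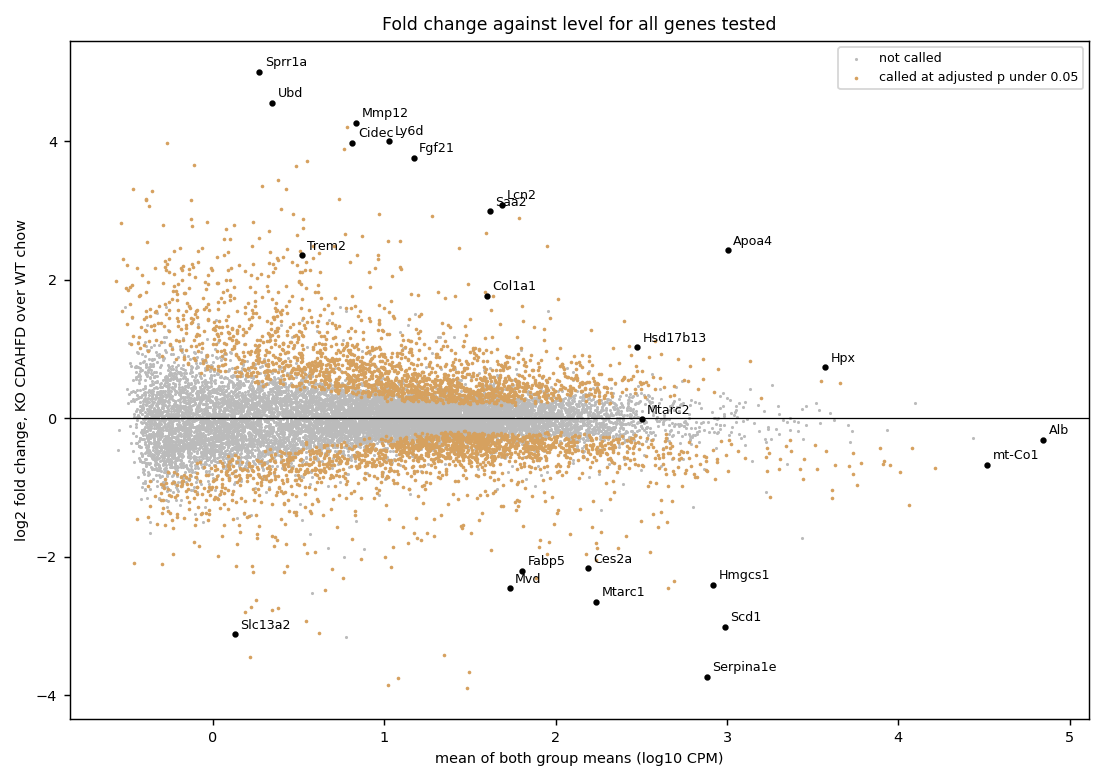
Log2 fold change of KO CDAHFD over WT chow (y axis) against the mean of both group means in log10 CPM (x axis) for the 16090 genes tested, with called genes in orange and named genes in black. The largest rises (Sprr1a, Ubd, Mmp12) have low CPM and lie at the left, while Apoa4, Scd1 and Hmgcs1 changed by more than 2 log2 units further to the right.

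The largest rises on the log2 scale came from genes barely detected in chow livers. Sprr1a, a cornified-envelope protein also known from stressed epithelia, reached between 1.10 and 8.80 CPM (median 2.66) in KO CDAHFD livers, against 0.0446, 0.0473, 0.308, 0.0977 and 0.0517 CPM in WT chow livers (log2 fold change 5.01, SE 0.73, adjusted p = 0.000394). Ubd, the ubiquitin-like FAT10 that inflammatory cytokines induce, lay between 1.31 and 13.4 CPM (median 2.43) in KO CDAHFD livers, against 0.0893, 0.0946, 0.308, 0.342 and 0.0517 CPM in WT chow livers (log2 fold change 4.56, SE 0.77, adjusted p = 0.00121). For both genes the KO and chow libraries did not overlap, and both passed the filter on low counts through the KO group alone. Mmp12, the macrophage elastase, was between 3.80 and 32.9 CPM (median 10.2) in KO CDAHFD livers, against 0.848, 0.662, 0.617, 0.537 and 0.672 CPM in WT chow livers (log2 fold change 4.27, SE 0.54, adjusted p = 0.00019). The surface protein gene Ly6d (log2 fold change 4.01, adjusted p = 0.00107), the lipid droplet fusion gene Cidec (log2 fold change 3.98, adjusted p = 0.000611), the hormone gene Fgf21 (log2 fold change 3.77, adjusted p = 0.00785), Cgref1 (log2 fold change 3.72, adjusted p = 1.94e-05) and the lipid-laden macrophage gene Gpnmb (log2 fold change 3.65, adjusted p = 0.00076) rose as well. Gsta1 (log2 fold change 3.90) and Gm3776 (log2 fold change 4.21) are near-identical glutathione transferase genes between which reads may be split, so their single values are uncertain, and the call of gene Gsta1 was lost with limma voom (adjusted p = 0.0574). Cidec, Cgref1, Gpnmb, Gsta1 and Gm3776 had too few chow libraries above the cutoff of the filter on low counts to pass without the KO group.

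Among the largest falls, Scd1, the stearoyl-CoA desaturase that makes monounsaturated fatty acids, fell to between 109 and 372 CPM (median 196) in KO CDAHFD livers, against 2518, 1510.2, 2012, 1536 and 1089 CPM in WT chow livers (log2 fold change -3.01, SE 0.29, adjusted p = 2.01e-05). The highest KO library for Scd1 stood well below the lowest chow library. Slc13a2, a citrate and dicarboxylate transporter, was between 0.0952 and 0.395 CPM (median 0.337) in KO CDAHFD livers, against 1.74, 3.69, 3.39, 1.51 and 1.71 CPM in WT chow livers (log2 fold change -3.12, SE 0.33, adjusted p = 2.33e-05). Slc13a2 passed the filter on low counts through the chow group alone. Slc34a2, a phosphate transporter (log2 fold change -2.92, adjusted p = 0.000579), and Nfe2 (log2 fold change -2.76, adjusted p = 0.000256) also fell with no overlap. Several large falls were in gene families with near-identical copies, with log2 fold changes of -3.73 for Serpina1e, -3.89 for Serpina4-ps1 and -3.85 for Cyp3a16, or in an antisense gene, Hnf4aos (log2 fold change -2.80); the sources used here do not say if reads were counted by strand, and these values are uncertain.

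Ranked by the difference in CPM, which also grows with transcript length, the rises included secreted hepatocyte proteins and a class I antigen gene. Hpx, which binds free haem in plasma, lay between 3996 and 5573 CPM (median 4682) in KO CDAHFD livers, against 2619, 3058, 2978, 2699 and 2712 CPM in WT chow livers (log2 fold change 0.74, SE 0.11, adjusted p = 0.000247). Apoa4, an apolipoprotein of chylomicrons and HDL, was between 1101 and 3018 CPM (median 1429) in KO CDAHFD livers, against 227, 340.0, 243, 434 and 338 CPM in WT chow livers (log2 fold change 2.43, SE 0.25, adjusted p = 2.33e-05), a rise to 5.39 times the chow mean. P4hb, the protein disulphide isomerase (log2 fold change 0.83, adjusted p = 0.000181), and H2-D1, a class I antigen chain (log2 fold change 0.71, adjusted p = 9.75e-05), rose as well. Neither gene had a KO library within the chow range.

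**Figure D3:**
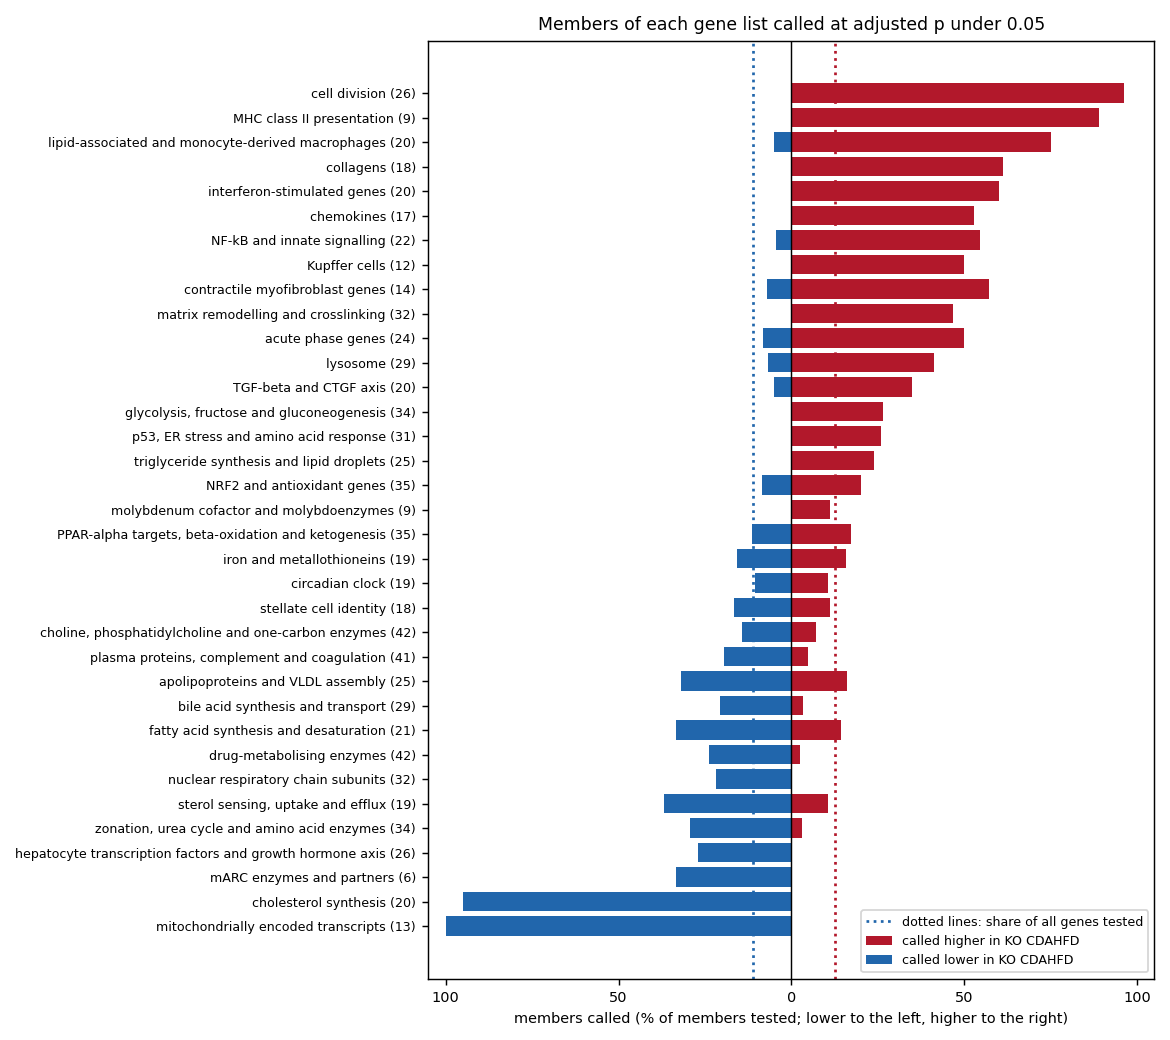
Percent of the tested members of each gene list other than the cell type marker lists (number in brackets) that were called higher (red, to the right) or lower (blue, to the left) in KO CDAHFD than in WT chow livers, with dotted lines at 12.7% and 11.2%, the shares of all genes tested. Cell division, class II antigen presentation and lipid-associated macrophage genes lie furthest to the right of the lists plotted, and mitochondrially encoded transcripts and cholesterol synthesis furthest to the left.

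Macrophage genes made up a prominent group of rises. Of 20 genes of lipid-associated and monocyte-derived macrophages, 15 were called higher and 1 lower, with a median log2 fold change of 1.21 beside 0.00 over all genes. Clec7a, which encodes the beta-glucan receptor dectin-1, lay between 10.5 and 21.6 CPM (median 14.4) in KO CDAHFD livers, against 3.13, 3.03, 3.495, 3.76 and 2.53 CPM in WT chow livers (log2 fold change 2.17, SE 0.18, adjusted p = 3.89e-06). Trem2, the lipid-sensing receptor that marks macrophages around dying fat-laden hepatocytes, was between 3.00 and 7.66 CPM (median 5.36) in KO CDAHFD livers, against 1.03, 1.37, 1.34, 0.781 and 0.827 CPM in WT chow livers (log2 fold change 2.36, SE 0.25, adjusted p = 2.33e-05). For both receptors each KO library exceeded all chow libraries.

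The lysosomal protease gene Ctss (log2 fold change 1.21, adjusted p = 5.4e-05), the scavenger receptor gene Cd68 (log2 fold change 1.20, adjusted p = 9.94e-05), the chemokine receptor gene Ccr2 of recruited monocytes (log2 fold change 1.47, adjusted p = 0.00024) and the integrin gene Itgax (log2 fold change 1.98, adjusted p = 0.000649), the last 2 chosen after their values were seen, rose too. The member that fell was Fabp5, a fatty acid binding protein that hepatocytes also express, at between 11.97 and 41.0 CPM (median 18.6) in KO CDAHFD livers, against 69.1, 135, 111, 139.7 and 66.6 CPM in WT chow livers (log2 fold change -2.20, SE 0.32, adjusted p = 0.000538). Spp1 (osteopontin) overlapped between groups and did not pass the test (log2 fold change 0.35, SE 0.20, adjusted p = 0.21). In bulk tissue more cells of a type and more RNA per cell cannot be told apart.

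Of 12 genes of Kupffer cells, the resident macrophages of the liver sinusoid, 6 were called higher and none lower. The complement genes C1qb (log2 fold change 0.78, adjusted p = 0.00121) and C1qc (log2 fold change 0.80, adjusted p = 0.00189) and the apoptosis inhibitor gene Cd5l (log2 fold change 1.13, adjusted p = 0.00228) were among them. Clec4f, the lectin gene used as the defining Kupffer marker in mice, lay between 107 and 191 CPM (median 138) in KO CDAHFD livers, against 122, 86.7, 91.5, 168 and 107 CPM in WT chow livers, with overlapping groups and no call (log2 fold change 0.33, SE 0.16, adjusted p = 0.147).

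Chemokine genes, whose products draw leukocytes into tissue, were called higher in 9 of 17 and lower in none (median 1.03). Their summed level lay between 403 and 552 CPM in KO CDAHFD livers, against between 395 and 626 CPM in WT chow livers. The 2 members with the highest mean CPM were not called. Cxcl10, an interferon-induced ligand of CXCR3, a chemokine receptor of T cells,, lay between 8.21 and 40.5 CPM (median 18.7) in KO CDAHFD livers, against 3.35, 2.27, 4.06, 4.98 and 3.21 CPM in WT chow livers (log2 fold change 2.56, SE 0.36, adjusted p = 0.000366). Ccl2, the monocyte attractant, was between 1.79 and 4.91 CPM (median 3.73) in KO CDAHFD livers, against 0.536, 0.709, 0.822, 1.17 and 0.982 CPM in WT chow livers (log2 fold change 2.11, SE 0.27, adjusted p = 0.000116). Neither ligand had a KO library within the chow range. Ccl7 (log2 fold change 3.15, adjusted p = 0.000504) and Cxcl16 (log2 fold change 0.73, adjusted p = 0.000506) rose as well. Ccl7, at most 0.195 CPM in chow livers, passed the filter on low counts through the KO group alone.

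Genes of NF-kB and innate signalling were called higher in 12 of 22 and lower in 1 (median over the list 0.66). The 2 members with the highest mean CPM were not called. The gene called lower was Birc3, an apoptosis inhibitor gene (log2 fold change -0.28). Its call was lost in 15 of 26 settings, raw library totals among them. Vcam1, the adhesion molecule for lymphocytes and monocytes, lay between 14.99 and 33.8 CPM (median 23.7) in KO CDAHFD livers, against 8.84, 7.66, 9.05, 10.7 and 5.95 CPM in WT chow livers (log2 fold change 1.48, SE 0.19, adjusted p = 9.75e-05). The receptor gene Tlr2 (log2 fold change 1.83, adjusted p = 0.000374), the adhesion gene Icam1 (log2 fold change 0.99, adjusted p = 0.000377) and the feedback inhibitor gene Tnfaip3, also known as A20 (log2 fold change 1.56, adjusted p = 0.000599), rose too.

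Class II antigen presentation genes rose in 8 of 9. The class II chain gene H2-Ab1 was between 30.4 and 64.0 CPM (median 46.1) in KO CDAHFD livers, against 20.2, 16.8, 27.9, 27.8 and 19.7 CPM in WT chow livers (log2 fold change 1.01, SE 0.17, adjusted p = 0.000838), and its invariant chain gene Cd74 followed (log2 fold change 0.91, adjusted p = 0.000865). Interferon-stimulated genes were called higher in 12 of 20 and lower in none (median 0.66), and the 2 with the highest mean CPM were not called. Usp18, which restrains type I interferon signalling, lay between 26.4 and 49.4 CPM (median 31.9) in KO CDAHFD livers, against 18.04, 10.3, 9.61, 14.9 and 13.5 CPM in WT chow livers (log2 fold change 1.35, SE 0.18, adjusted p = 0.000141). Gbp2, a guanylate binding protein (log2 fold change 1.45, adjusted p = 0.000762), was a further member that rose.

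Markers of other leukocytes were called in both directions, beside 12.7% of all genes called higher and 11.2% lower. Of 13 T and NK cell genes that passed the filter on low counts 1 was called higher, the granzyme gene Gzma (log2 fold change 0.87, adjusted p = 0.0412), and the call of gene Gzma was lost in 15 of 25 settings, among them without KO library 1, 5, 7 or 8 and without chow library 1, 2, 4 or 5 (adjusted p up to 0.107 with 1 library left out). Of 9 B and plasma cell genes 1 was called lower, Jchain, the joining chain of secreted antibodies (log2 fold change -1.20, adjusted p = 0.00261). Of 12 listed neutrophil genes 5 passed that filter, all with a log2 fold change above 0 (median 0.79), and 1 was called higher, Csf3r, the G-CSF receptor (log2 fold change 0.74, adjusted p = 0.0187), a call of gene Csf3r that was lost without chow library 2 (adjusted p = 0.0525). Of 8 dendritic cell genes Siglech (log2 fold change 1.21, adjusted p = 0.0188) and Cd209a (log2 fold change 1.02, adjusted p = 0.0495) were called higher and Zbtb46 (log2 fold change -0.58, adjusted p = 0.016) lower. Of these, gene Cd209a lost its call whichever single chow library was left out, and without KO library 3 (adjusted p up to 0.113) and gene Zbtb46 without chow library 4 or 5 (adjusted p = 0.0585 and 0.067). Summed over the genes that passed the filter, the T and NK markers lay between 9.84 and 17.9 CPM in KO CDAHFD livers, against between 9.36 and 13.7 CPM in WT chow livers, and the neutrophil markers between 6.79 and 16.3 CPM in KO CDAHFD livers, against between 4.26 and 7.23 CPM in WT chow livers. No defining marker of these leukocyte lists was at 0 in all 13 libraries. The part of these cells in the rises above was not tested.

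Nearly all cell division genes rose. Cyclins and their kinases drive the cell cycle, the minichromosome maintenance (MCM) helicase opens replication origins, and further members build the spindle. Of 26 genes 25 were called higher, the median log2 fold change was 1.57, 7 passed the test against 2-fold, and in 17 every KO library lay above every chow library. Over all genes tested these shares were 12.7% called higher, 0.41% higher past the 2-fold test and 4.97% above chow without overlap. The remaining cell division gene, Mcm7, had a log2 fold change of 0.34, SE 0.13 and missed the threshold (adjusted p = 0.0735).

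Among replication genes Mcm6 lay between 13.3 and 31.7 CPM (median 18.8) in KO CDAHFD livers, against 4.24, 4.92, 4.52, 5.08 and 3.41 CPM in WT chow livers (log2 fold change 2.19, SE 0.21, adjusted p = 1.85e-05). Mcm2 was between 8.39 and 22.9 CPM (median 11.7) in KO CDAHFD livers, against 4.46, 2.74, 3.495, 3.81 and 3.05 CPM in WT chow livers (log2 fold change 1.90, SE 0.22, adjusted p = 5.32e-05). Both helicase genes separated the groups fully. Mcm5 (log2 fold change 2.36, adjusted p = 7.09e-05) and Rrm2, the ribonucleotide reductase subunit that supplies deoxynucleotides (log2 fold change 1.55, adjusted p = 8.14e-05), rose alike.

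Of the cyclins, Ccnd1, the G1 cyclin, was between 168 and 342 CPM (median 217) in KO CDAHFD livers, against 104, 64.5, 117, 92.7 and 95.5 CPM in WT chow livers (log2 fold change 1.27, SE 0.18, adjusted p = 0.00023). The mitotic genes Ccnb1 (log2 fold change 2.45, adjusted p = 0.000444), Ccnb2 (log2 fold change 2.14, adjusted p = 0.000377), Cdk1 (log2 fold change 1.88, adjusted p = 0.000392), Cdc20 (log2 fold change 2.25, adjusted p = 0.000618) and Mki67 (log2 fold change 2.06, adjusted p = 0.000418), which were chosen after their values were seen, rose as well. In the KO livers the mean level of the list was highest in libraries 4 and 6 and lowest in libraries 1 and 5. Which cells divided cannot be read from bulk tissue.

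Promoters of cell division genes often carry CCAAT boxes, read by the factor NF-Y, and a cell cycle homology region, read by the DREAM and MuvB complexes. In the RefSeq windows from 250 bases before to 50 bases after the annotated start (GRCm38.p6, the first window of a gene with several), which matched 21 of the 26 genes, the letters TTTGAA or TTCGAA on either strand stood in 52.4%, beside 19.4% of all 27025 promoters. CCAAT on either strand stood in 81% of the same windows, beside 37.9% of all promoters. Over the 11398 promoters of genes tested these shares were 14.3% for the homology letters and 38.6% for CCAAT. The windows of 2 called members with low p that held the homology letters are shown because these genes rose together, with those letters in capitals. The letters begin 70 bases before the start in Mcm2 and 167 bases before it, and again within the transcribed part, in Ccnb2. A match is a description of the letters and not of binding.
Mcm2 (chr6:88898731-88899030, minus strand): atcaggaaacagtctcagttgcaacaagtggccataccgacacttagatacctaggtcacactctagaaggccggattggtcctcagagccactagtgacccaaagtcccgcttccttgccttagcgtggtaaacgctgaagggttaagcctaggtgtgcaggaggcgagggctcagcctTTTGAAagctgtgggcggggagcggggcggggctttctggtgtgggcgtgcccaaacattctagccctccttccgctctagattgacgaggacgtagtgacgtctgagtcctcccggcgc
Ccnb2 (chr9:70421505-70421804, minus strand): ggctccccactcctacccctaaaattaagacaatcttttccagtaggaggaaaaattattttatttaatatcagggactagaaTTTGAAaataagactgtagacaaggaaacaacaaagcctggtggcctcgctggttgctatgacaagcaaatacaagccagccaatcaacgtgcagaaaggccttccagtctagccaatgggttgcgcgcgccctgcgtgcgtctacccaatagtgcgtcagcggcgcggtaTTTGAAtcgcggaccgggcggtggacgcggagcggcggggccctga

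**Figure D4:**
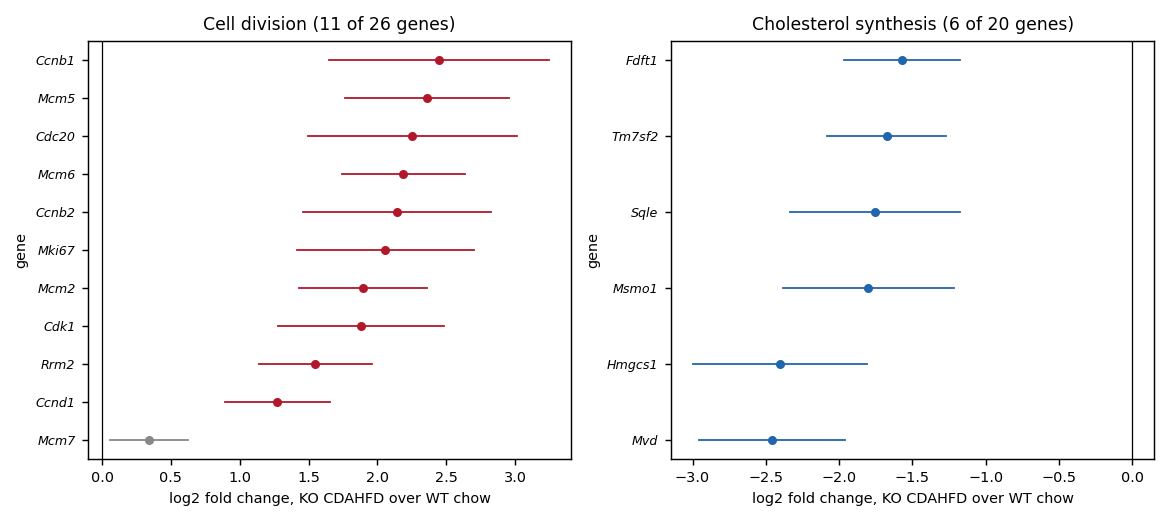
Log2 fold change of KO CDAHFD over WT chow (x axis, with its 95% interval as a line) for the named members of the cell division list (left, 11 of 26) and of the cholesterol synthesis list (right, 6 of 20); red is called higher, blue called lower and grey not called. All named members lie right of 0 on the left and left of 0 on the right, and Mcm7 alone was not called.

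Cholesterol synthesis moved as a block in the other direction. The pathway turns acetyl-CoA into mevalonate, squalene and then sterols, and its genes are switched on by SREBP-2 when membranes run short of cholesterol. Of 20 genes 19 were called lower, the median log2 fold change was -1.61, and in 17 every KO library lay below every chow library. Over all genes tested these shares were 11.2% called lower and 3.31% below chow without overlap. With raw library totals the median of the list was -1.403.

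Hmgcs1, the cytosolic HMG-CoA synthase at the entry of the pathway, fell to between 115 and 361 CPM (median 300.4) in KO CDAHFD livers, against 771, 1598, 1520.5, 1794 and 1319 CPM in WT chow livers (log2 fold change -2.40, SE 0.28, adjusted p = 7.05e-05). Mvd, which makes isopentenyl diphosphate, was between 10.2 and 23.3 CPM (median 16.8) in KO CDAHFD livers, against 51.8, 109, 107, 115 and 73.7 CPM in WT chow livers (log2 fold change -2.46, SE 0.23, adjusted p = 2.01e-05). Fdft1, the squalene synthase, was between 49.2 and 102 CPM (median 86.7) in KO CDAHFD livers, against 158, 285, 312, 269 and 189.9 CPM in WT chow livers (log2 fold change -1.57, SE 0.19, adjusted p = 6.38e-05). In each of the 3 enzymes the KO range ended below the chow range. Tm7sf2, a sterol reductase, fell too (log2 fold change -1.68, adjusted p = 5.4e-05), as did Sqle, the squalene epoxidase, which was chosen after its values were seen (log2 fold change -1.75, adjusted p = 0.000612).

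Genes that sense and move sterols were less uniform. Of 19, 7 were called lower and 2 higher, beside 11.2% and 12.7% of all genes. The median of -0.05 became 0.14 with raw library totals. Insig1, which holds SREBP in the endoplasmic reticulum and is itself an SREBP target, was between 167 and 433 CPM (median 298) in KO CDAHFD livers, against 567.8, 729.7, 954, 592 and 501 CPM in WT chow livers (log2 fold change -1.20, SE 0.20, adjusted p = 0.000748). Scap, the SREBP escort (log2 fold change -0.81, adjusted p = 0.000748), and Srebf2, which encodes SREBP-2 (log2 fold change -0.55, adjusted p = 0.00948), fell. The members called higher were Abcg1, a sterol exporter of macrophages (log2 fold change 0.63, adjusted p = 0.00155), and Soat1, the cholesterol-esterifying enzyme of macrophages and other cells (log2 fold change 0.55, adjusted p = 0.0161). The call of gene Soat1 was lost within the libraries numbered from 11000 (adjusted p = 0.0727).

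The letters CACNCCA, the core of the sterol response element that SREBP reads, stood on either strand in 3 of the 15 matched cholesterol synthesis windows (20%) and in 4 of the 13 matched windows of the sterol-sensing list (30.8%), beside 18.3% of all promoters. CCAAT stood in 86.7% and 69.2% of the same windows, beside 37.9% of all promoters. Over the 11398 promoters of genes tested these shares were 17.8% for the sterol letters and 38.6% for CCAAT. From each list 2 called members with low p that held the sterol letters are printed with those letters in capitals, since these are genes that fell together. The match begins 136 bases before the start in Hmgcs1, 176 in Msmo1 (a sterol methyl oxidase, log2 fold change -1.80, adjusted p = 0.000528), 8 in Insig1, where it reads on the opposite strand, and 161 in Srebf2.
Hmgcs1 (chr13:119690101-119690400, plus strand): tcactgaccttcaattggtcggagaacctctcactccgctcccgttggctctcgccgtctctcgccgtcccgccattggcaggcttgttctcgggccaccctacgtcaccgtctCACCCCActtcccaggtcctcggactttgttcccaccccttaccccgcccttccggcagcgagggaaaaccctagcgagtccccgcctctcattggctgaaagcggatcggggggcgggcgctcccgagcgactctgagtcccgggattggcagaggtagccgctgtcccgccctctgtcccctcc
Msmo1 (chr8:64733529-64733828, minus strand): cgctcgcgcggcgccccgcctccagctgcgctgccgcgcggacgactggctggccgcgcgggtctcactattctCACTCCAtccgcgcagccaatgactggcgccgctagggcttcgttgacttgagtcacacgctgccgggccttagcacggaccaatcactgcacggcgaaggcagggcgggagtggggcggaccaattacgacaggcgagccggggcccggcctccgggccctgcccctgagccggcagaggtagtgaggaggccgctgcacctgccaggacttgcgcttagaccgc
Insig1 (chr5:28071162-28071461, plus strand): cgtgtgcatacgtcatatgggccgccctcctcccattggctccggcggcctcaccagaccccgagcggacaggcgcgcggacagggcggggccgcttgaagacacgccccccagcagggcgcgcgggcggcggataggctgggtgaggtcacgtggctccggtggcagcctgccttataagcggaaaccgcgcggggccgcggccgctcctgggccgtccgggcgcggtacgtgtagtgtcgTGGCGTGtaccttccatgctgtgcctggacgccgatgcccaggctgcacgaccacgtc
Srebf2 (chr15:82147019-82147318, plus strand): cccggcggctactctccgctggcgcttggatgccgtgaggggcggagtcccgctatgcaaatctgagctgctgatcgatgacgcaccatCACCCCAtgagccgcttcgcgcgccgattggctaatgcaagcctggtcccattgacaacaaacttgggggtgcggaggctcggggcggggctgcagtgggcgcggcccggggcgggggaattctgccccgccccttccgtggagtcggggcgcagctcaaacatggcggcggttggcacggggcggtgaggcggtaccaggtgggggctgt

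Fatty acid synthesis and desaturation genes were called in both directions. Of 21 genes 7 were called lower and 3 higher, beside 11.2% and 12.7% of all genes. Beside Scd1, Acss2, which makes acetyl-CoA from acetate, was between 42.6 and 90.6 CPM (median 59.5) in KO CDAHFD livers, against 205, 341, 262, 241 and 146 CPM in WT chow livers (log2 fold change -1.96, SE 0.21, adjusted p = 3.64e-05). Fasn, the fatty acid synthase, was between 227 and 483 CPM (median 273) in KO CDAHFD livers, against 481, 700.0, 676, 632 and 510.1 CPM in WT chow livers (log2 fold change -0.98, SE 0.17, adjusted p = 0.00114), and 1 KO library lay just above the lowest chow library. Mlxipl, the carbohydrate-sensing factor ChREBP, also fell (log2 fold change -0.80, adjusted p = 0.00187). Fads2, the desaturase of polyunsaturated fatty acids, rose in the opposite direction to between 673 and 1164 CPM (median 972) in KO CDAHFD livers, against 405, 452, 717, 535 and 457 CPM in WT chow livers (log2 fold change 0.86, SE 0.16, adjusted p = 0.00123).

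Of 25 genes of triglyceride synthesis and lipid droplets, 6 were called higher and none lower. Cidec, which fuses droplets, lay between 3.23 and 23.2 CPM (median 9.92) in KO CDAHFD livers, against 1.34, 0.568, 0.411, 0.83 and 0.672 CPM in WT chow livers (log2 fold change 3.98, SE 0.60, adjusted p = 0.000611). Hsd17b13, a droplet-associated retinol dehydrogenase linked in people to liver disease, was between 327 and 480.3 CPM (median 402) in KO CDAHFD livers, against 218, 185, 242, 176 and 165 CPM in WT chow livers (log2 fold change 1.03, SE 0.13, adjusted p = 9.57e-05). Both genes separated the groups. Plin3, a droplet coat protein gene, rose by less (log2 fold change 0.45, adjusted p = 0.00396). Cidec is also one of 8 listed adipose markers, of which Cidec, Car3 and Adrb3 passed the filter on low counts and Cidec alone was called. The mean log2 CPM of those 3 lay between 5.68 and 6.40 in KO CDAHFD livers, against between 4.36 and 4.98 in WT chow livers, with no overlap, and their summed level between 1304 and 3464 CPM in KO CDAHFD livers, against between 1327 and 1709 CPM in WT chow livers. Lep and Retn were at 0 in all 13 libraries, and the part of adipose RNA in these values was not tested.

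Targets of PPAR-alpha, the fatty acid receptor that drives beta-oxidation and ketone synthesis, did not move one way. Of 35 genes 6 were called higher and 4 lower, beside 12.7% and 11.2% of all genes. Bdh1, which interconverts the ketone bodies, was between 443 and 612 CPM (median 549) in KO CDAHFD livers, against 348, 239.5, 347, 226 and 262 CPM in WT chow livers (log2 fold change 0.92, SE 0.13, adjusted p = 0.000181). Cd36, a fatty acid translocase (log2 fold change 1.404, adjusted p = 0.0024), and Cpt1a, which admits fatty acids to mitochondria (log2 fold change 0.75, adjusted p = 0.0035), rose. Fabp1, the liver fatty acid binding protein, fell to between 1674 and 2742 CPM (median 1851) in KO CDAHFD livers, against 4433, 2399, 3172, 3198 and 3554 CPM in WT chow livers (log2 fold change -0.74, SE 0.15, adjusted p = 0.00269), and the omega-hydroxylase gene Cyp4a10 (log2 fold change -1.38, adjusted p = 0.00503) and the thioesterase gene Acot1 (log2 fold change -1.75, adjusted p = 0.0111) fell with it.

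Fgf21, a fasting and stress hormone of the liver, varied widely among the KO livers. It lay between 2.79 and 94.7 CPM (median 23.2) in KO CDAHFD livers, against 3.21, 1.61, 2.83, 0.928 and 1.55 CPM in WT chow livers (log2 fold change 3.77, SE 0.85, adjusted p = 0.00785). The lowest KO library fell within the chow range, and library 4 stood at the top. The call of gene Fgf21 was lost with limma voom (adjusted p = 0.0922).

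The diet lacks choline, so enzymes of choline, phosphatidylcholine and one-carbon metabolism were listed. Of 42 genes 3 were called higher and 6 lower, beside 12.7% and 11.2% of all genes. The median of -0.13 became 0.07 with raw library totals. Their summed level lay between 8930 and 12479 CPM in KO CDAHFD livers, against between 13256 and 14988 CPM in WT chow livers, with no overlap. The mean log2 CPM of the members did overlap. Bhmt, which uses the choline product betaine to remethylate homocysteine, fell to between 2035 and 3031 CPM (median 2442) in KO CDAHFD livers, against 3233, 4341, 3482, 5519.8 and 4215 CPM in WT chow livers (log2 fold change -0.73, SE 0.14, adjusted p = 0.00161). Pcyt2, of phosphatidylethanolamine synthesis, was between 578 and 848 CPM (median 679) in KO CDAHFD livers, against 873, 1165, 906, 1094 and 1237 CPM in WT chow livers (log2 fold change -0.63, SE 0.12, adjusted p = 0.00149), and Gamt, the methyl-consuming last step of creatine synthesis, fell too (log2 fold change -0.57, adjusted p = 0.00347). None of these 3 enzymes overlapped between groups.

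Of the members called higher, Mat2a, the S-adenosylmethionine synthetase of dividing and extrahepatic cells, was between 81.6 and 151 CPM (median 119) in KO CDAHFD livers, against 80.3, 72.1, 75.0, 73.6 and 72.4 CPM in WT chow livers (log2 fold change 0.65, SE 0.12, adjusted p = 0.00168). Its hepatocyte counterpart Mat1a was not called (log2 fold change -0.15, SE 0.11, adjusted p = 0.336). The mitochondrial folate genes Mthfd2 (log2 fold change 1.67, adjusted p = 0.000966) and Mthfd1l (log2 fold change 1.52, adjusted p = 0.00568) rose as well.

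Apolipoprotein and VLDL genes were called in both directions, with 4 of 25 higher and 8 lower, beside 12.7% and 11.2% of all genes. Their median was -0.20, and 0.00 with raw library totals. Beside Apoa4, the lipase cofactor gene Apoc2 (log2 fold change 0.53, adjusted p = 0.00259) and the lipoprotein lipase gene Lpl (log2 fold change 0.88, adjusted p = 0.00264) rose. Pltp, which moves phospholipid between lipoproteins, fell to between 28.7 and 47.0 CPM (median 34.3) in KO CDAHFD livers, against 59.3, 108, 67.2, 128 and 65.5 CPM in WT chow livers (log2 fold change -1.27, SE 0.17, adjusted p = 0.000204). Apoa2, an HDL protein (log2 fold change -0.64, adjusted p = 0.00229), and Apoc3, an inhibitor of triglyceride clearance (log2 fold change -0.77, adjusted p = 0.00213), also fell. Apoe, the remnant-clearing apolipoprotein, was not called (log2 fold change -0.28, SE 0.11, adjusted p = 0.0784).

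In bile acid metabolism 6 of 29 genes were called lower and 1 higher (median -0.12, and 0.08 with raw library totals). Cyp27a1, which opens the alternative pathway of bile acid synthesis, fell to between 179 and 269.6 CPM (median 235) in KO CDAHFD livers, against 393, 536, 506, 415 and 458 CPM in WT chow livers (log2 fold change -0.98, SE 0.11, adjusted p = 2.98e-05), and no KO library reached the chow range. Nr0b2 (SHP), the bile-acid-induced repressor, fell as well (log2 fold change -0.79, adjusted p = 0.00878).

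Matrix genes rose in part. Of 18 collagen genes 11 were called higher and none lower (median 0.43). Col1a1, the main chain of fibrillar scar collagen, lay between 40.0 and 99.0 CPM (median 58.0) in KO CDAHFD livers, against 13.5, 15.7, 15.3, 27.5 and 18.2 CPM in WT chow livers (log2 fold change 1.77, SE 0.22, adjusted p = 0.000122). Col3a1, its fibrillar partner, was between 78.6 and 125 CPM (median 106) in KO CDAHFD livers, against 32.6, 39.5, 37.1, 57.9 and 46.1 CPM in WT chow livers (log2 fold change 1.31, SE 0.14, adjusted p = 2.53e-05). All KO libraries exceeded all chow libraries in both. The basement membrane gene Col4a1 (log2 fold change 0.98, adjusted p = 0.000243) rose, whereas Col18a1, another basement membrane collagen gene, was not called (log2 fold change -0.05, SE 0.12, adjusted p = 0.802).

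Of 32 genes that remodel or crosslink matrix, 15 were called higher and none lower. Timp1, an inhibitor of matrix proteases, was between 0.786 and 3.76 CPM (median 1.75) in KO CDAHFD livers, against 0.536, 0.142, 0.0514, 0.732 and 0.155 CPM in WT chow livers (log2 fold change 2.59, SE 0.50, adjusted p = 0.00195). Too few chow libraries reached the cutoff of the filter on low counts for Timp1 to pass without the KO group. Loxl2, a collagen crosslinker, rose without overlap (log2 fold change 0.80, adjusted p = 0.000238). The fibronectin gene Fn1 (log2 fold change 0.33, SE 0.18, adjusted p = 0.197) and the decorin gene Dcn (log2 fold change -0.22, SE 0.13, adjusted p = 0.236) were not called.

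Contractile genes of myofibroblasts were called higher in 8 of 14 and lower in 1. Tagln (transgelin) lay between 10.5 and 17.4 CPM (median 13.9) in KO CDAHFD livers, against 5.00, 5.34, 5.24, 6.84 and 6.72 CPM in WT chow livers (log2 fold change 1.26, SE 0.13, adjusted p = 1.94e-05). Acta2, smooth muscle actin, was between 2.65 and 6.45 CPM (median 3.74) in KO CDAHFD livers, against 1.79, 1.18, 1.29, 1.71 and 2.07 CPM in WT chow livers (log2 fold change 1.32, SE 0.24, adjusted p = 0.00113). Neither gene overlapped between the groups.

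Genes of quiescent stellate cell identity were called about as often as all genes. Of 18 genes 2 were called higher and 3 lower, beside 12.7% and 11.2% of all genes, with a median of -0.08 that became 0.13 with raw library totals. Their summed level lay between 267 and 388 CPM in KO CDAHFD livers, against between 412 and 462 CPM in WT chow livers, with no overlap. The mean log2 CPM of the members did overlap. Ecm1, a matrix protein that restrains latent TGF-beta in mice, fell to between 72.8 and 123 CPM (median 117) in KO CDAHFD livers, against 154, 203, 157, 194 and 197 CPM in WT chow livers (log2 fold change -0.79, SE 0.14, adjusted p = 0.00101). Vipr1, a neuropeptide receptor gene, fell as well (log2 fold change -0.69, adjusted p = 0.00107), and Pdgfrb, the PDGF receptor of stellate cells and fibroblasts, rose by a smaller amount (log2 fold change 0.37, adjusted p = 0.00476). On the TGF-beta axis 7 of 20 genes were called higher and 1 lower. Tgfbi, a TGF-beta-induced matrix protein, was between 55.1 and 67.3 CPM (median 60.4) in KO CDAHFD livers, against 35.9, 37.6, 38.7, 34.4 and 33.7 CPM in WT chow livers (log2 fold change 0.75, SE 0.08, adjusted p = 1.99e-05).

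Of 14 endothelial markers 5 were called lower and none higher, with log2 fold changes of -0.55 for Ptprb, -0.56 for Stab1, -0.40 for Clec4g, -0.38 for Eng and -0.34 for Kdr. All 5 calls were lost with raw library totals and with the mitochondrial share as a covariate, and all but that of Ptprb were lost without chow library 4 or 5. The summed endothelial markers lay between 292 and 485 CPM in KO CDAHFD livers, against between 391 and 530.3 CPM in WT chow livers. The summed bile duct markers lay between 103 and 188 CPM in KO CDAHFD livers, against between 95.2 and 146 CPM in WT chow livers, and none of the 8 measured was called. The 4 measured globin genes fell, and the haem synthesis gene Alas2 of erythroid cells rose (log2 fold change 0.69, adjusted p = 0.00767). Hba-a2 lay between 34.8 and 63.6 CPM (median 43.2) in KO CDAHFD livers, against 68.9, 99.9, 96.5, 108 and 127 CPM in WT chow livers (log2 fold change -1.12, SE 0.15, adjusted p = 0.000138; its copy Hba-a1 may share reads). The part of these cells in other results was not tested.

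Genes of the keratin and other epithelial list rose. Of 10 listed, 7 passed the filter on low counts, among them Sprr1a through the KO group alone, and all 7 were called higher. The list was chosen with earlier results of these data known and holds Sprr1a, Ly6d and Lcn2, so its count is no test. Lcn2 is also counted among the acute phase genes. Summed levels lay between 752 and 1446 CPM in KO CDAHFD livers, against between 458 and 567 CPM in WT chow livers. Krt8 was between 333 and 713 CPM (median 501) in KO CDAHFD livers, against 211, 267, 246, 259 and 213 CPM in WT chow livers (log2 fold change 1.11, SE 0.15, adjusted p = 0.000197), and its partner Krt18 rose (log2 fold change 0.68, adjusted p = 0.00321); both are keratins that hepatocytes themselves make. Ly6d lay between 6.64 and 58.0 CPM (median 13.2) in KO CDAHFD livers, against 1.47, 0.993, 0.617, 1.61 and 1.499 CPM in WT chow livers, with no overlap.

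Acute phase genes, which hepatocytes switch on under IL-6 and IL-1, were called higher in 12 of 24 and lower in 2 (median 0.52). Saa1 (serum amyloid A1) lay between 69.8 and 185 CPM (median 96.0) in KO CDAHFD livers, against 10.9, 19.1, 22.8, 12.7 and 7.60 CPM in WT chow livers (log2 fold change 2.89, SE 0.32, adjusted p = 7.12e-05). Saa2, a close copy with which Saa1 may share reads, was between 45.5 and 127 CPM (median 66.6) in KO CDAHFD livers, against 7.95, 10.9, 10.7, 12.3 and 4.14 CPM in WT chow livers (log2 fold change 2.99, SE 0.32, adjusted p = 5.15e-05). Lcn2, an iron-binding lipocalin, was between 43.9 and 180.3 CPM (median 77.4) in KO CDAHFD livers, against 5.18, 18.8, 10.3, 10.4 and 6.20 CPM in WT chow livers (log2 fold change 3.09, SE 0.43, adjusted p = 0.000407). All 3 genes separated the groups. Steap4, a metalloreductase (log2 fold change 1.44, adjusted p = 4.64e-05), and haptoglobin, Hp (log2 fold change 0.53, adjusted p = 0.0118), rose as well.

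Other products of hepatocytes were called in both directions. Of 41 plasma protein, complement and coagulation genes 2 were called higher and 8 lower, beside 12.7% and 11.2% of all genes (median -0.09, and 0.11 with raw library totals). In 6 of the 41 every KO library lay below every chow library, beside 3.31% of all genes. Alb (albumin) was not called (log2 fold change -0.31, SE 0.14, adjusted p = 0.106). Klkb1, prekallikrein (log2 fold change -0.56, adjusted p = 0.000521), and Fetub, fetuin-B (log2 fold change -0.74, adjusted p = 0.00077), fell without overlap. The summed hepatocyte markers lay between 78406 and 114314 CPM in KO CDAHFD livers, against between 99958 and 132813 CPM in WT chow livers, and 3 of 10 were called lower. No hepatocyte marker was at 0 in all 13 libraries.

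Of 26 hepatocyte transcription factors and growth hormone axis genes, 7 were called lower and none higher. Igf1, the growth hormone effector, fell to between 404 and 898 CPM (median 529) in KO CDAHFD livers, against 859, 866, 816, 1069.7 and 1091 CPM in WT chow livers (log2 fold change -0.75, SE 0.17, adjusted p = 0.00465), with 1 KO library inside the chow range. Stat5a (log2 fold change -0.67, adjusted p = 0.000716) and Stat5b (log2 fold change -0.42, adjusted p = 0.00192), which carry the growth hormone signal, fell as well. Mup22, one of the growth-hormone-dependent major urinary proteins whose copies share reads, had a log2 fold change of -1.26, SE 0.34 (adjusted p = 0.0163).

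Drug-metabolising enzymes were called lower in 10 of 42 and higher in 1 (median -0.07, and 0.12 with raw library totals). Ces2a, a carboxylesterase, fell to between 38.9 and 73.0 CPM (median 55.5) in KO CDAHFD livers, against 307, 294, 308, 184 and 166 CPM in WT chow livers (log2 fold change -2.17, SE 0.18, adjusted p = 5.47e-06). Cyp2b10, the classic target of the receptor CAR, was between 1.89 and 5.96 CPM (median 3.79) in KO CDAHFD livers, against 14.5, 24.03, 22.7, 17.4 and 11.1 CPM in WT chow livers (log2 fold change -2.15, SE 0.24, adjusted p = 4.1e-05). Cyp3a11, a target of PXR with close family copies, fell too (log2 fold change -1.13, adjusted p = 0.000241), while Cyp2e1, the ethanol-oxidising P450, was not called (log2 fold change 0.08, SE 0.21, adjusted p = 0.808) and the flavin monooxygenase gene Fmo5 rose (log2 fold change 0.89, adjusted p = 0.00358).

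Zonated enzymes of amino acid breakdown and the urea cycle were called lower in 10 of 34 and higher in 1. Haao, of tryptophan breakdown (log2 fold change -0.74, adjusted p = 0.00059), Fah, of tyrosine breakdown (log2 fold change -0.48, adjusted p = 0.0026), and Hal, of histidine breakdown (log2 fold change -0.67, adjusted p = 0.00684), fell without overlap, and Rhbg, a pericentral ammonia transporter, rose (log2 fold change 0.77, adjusted p = 0.0122).

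Among 35 NRF2 and antioxidant genes 7 were called higher and 3 lower, beside 12.7% and 11.2% of all genes. Srxn1 (sulfiredoxin) lay between 49.3 and 170.4 CPM (median 95.4) in KO CDAHFD livers, against 30.9, 32.2, 32.7, 32.0 and 26.7 CPM in WT chow livers (log2 fold change 1.63, SE 0.25, adjusted p = 0.000533). Hmox1, haem oxygenase, rose (log2 fold change 1.23, adjusted p = 0.00013), and Sod1, the cytosolic superoxide dismutase, fell to between 360.2 and 579.8 CPM (median 465.9) in KO CDAHFD livers, against 807, 742, 641, 794 and 807 CPM in WT chow livers (log2 fold change -0.69, SE 0.11, adjusted p = 0.000443). None of the 3 overlapped between groups.

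Of 31 genes of the p53, endoplasmic reticulum stress and amino acid responses 8 were called higher and none lower. Atf3, a stress-induced factor, lay between 3.58 and 29.8 CPM (median 8.22) in KO CDAHFD livers, against 2.37, 1.47, 1.64, 2.34 and 2.38 CPM in WT chow livers (log2 fold change 2.63, SE 0.55, adjusted p = 0.00465). The serine synthesis gene Psat1 (log2 fold change 2.26, adjusted p = 0.0012), the asparagine synthetase gene Asns (log2 fold change 1.53, adjusted p = 0.00125), both targets of ATF4, and the p53 target Phlda3 (log2 fold change 1.73, adjusted p = 0.000864) rose. The chaperone gene Hspa5 (BiP) was not called (log2 fold change 0.22, SE 0.16, adjusted p = 0.337).

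In carbohydrate metabolism 9 of 34 genes were called higher and none lower, among them Pck2, the mitochondrial PEP carboxykinase (log2 fold change 0.91, adjusted p = 0.00323), and Ldha, lactate dehydrogenase (log2 fold change 0.75, adjusted p = 0.00743). Lysosomal genes were called higher in 12 of 29 and lower in 2. The protease genes Lgmn (log2 fold change 0.88, adjusted p = 6.16e-05) and Ctsb (log2 fold change 0.53, adjusted p = 0.00195) rose and the ganglioside activator gene Gm2a fell (log2 fold change -0.76, adjusted p = 6.38e-05), each without overlap. Of 19 iron and metallothionein genes 3 were called in each direction, beside 12.7% of all genes called higher and 11.2% lower; Tfr2, the iron-sensing transferrin receptor, fell (log2 fold change -0.48, adjusted p = 0.00812), as did the manganese exporter gene Slc30a10 (log2 fold change -1.32, adjusted p = 0.0167). Of 19 clock genes 2 were called in each direction, no more often than all genes, and Clock itself fell (log2 fold change -0.59, adjusted p = 0.00506); the sources used here do not give the time of day of sampling.

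Mitochondrially encoded transcripts fell in 13 of 13 (median -0.69, and -0.48 with raw library totals). The cytochrome oxidase subunit gene mt-Co1 lay between 19929 and 29801 CPM (median 25324) in KO CDAHFD livers, against 39636, 39856, 27649.8, 46107 and 49539.9 CPM in WT chow livers (log2 fold change -0.67, SE 0.14, adjusted p = 0.00351). The groups overlapped, with 5 of 8 KO libraries below all chow libraries. The complex I gene mt-Nd4 (log2 fold change -0.78, adjusted p = 0.00363) and the ATP synthase gene mt-Atp8, which overlaps mt-Atp6 (log2 fold change -0.81, adjusted p = 0.000528), followed. With the mitochondrially encoded share of counts as a covariate 2618 genes were called, and of the genes named here Apoc3, Cd36, Cd5l, Cpt1a, Cyp3a16, Fmo5, Gamt, Igf1, Ldha, Mup22, Rhbg, Serpina4-ps1, Slc30a10, Xdh, mt-Co1, mt-Nd4, Alas2, Birc3, Gzma and Zbtb46 lost their calls, as did 5 endothelial markers, while Alb and Col18a1 were called lower. The transcripts mt-Co1 and mt-Nd4 are themselves counted in that share, so they were adjusted for a total that includes them. Among the 6 KO and 4 chow libraries whose names are numbers from 11000, the mitochondrial share was 9.27% ± 1.81 in KO CDAHFD livers and 13.1% ± 3.44 in WT chow livers (SD; exact permutation test, p = 0.0571). Of 32 nuclear-encoded respiratory subunits 7 were called lower and none higher, with a median of -0.12 that became 0.08 with raw library totals; Ndufb5 of complex I fell without overlap (log2 fold change -0.39, adjusted p = 0.00524).

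The KO libraries varied in how many of the called genes lay outside the chow range. Of the genes called higher, each KO library exceeded all chow libraries in a share that ran between 76.9% (library 1) and 93% (library 2), and of the genes called lower, each lay below all chow libraries in a share between 63.9% (library 7) and 89.9% (library 2). These shares describe the calls and are no test, since the same libraries made them. Library 4 had the highest mean level of the KO libraries in 8 of 45 lists, among them cell division, collagens, matrix remodelling and the stress list, and its Fgf21 stood at 94.7 CPM and its Atf3 at 29.8 CPM. Library 8 was highest in 9 lists, among them lipid-associated macrophages, chemokines and NF-kB genes, with Mmp12 at 32.9 CPM and Gpnmb at 17.1 CPM. Library 1 was highest for interferon-stimulated genes and lowest for cholesterol synthesis. After it, cholesterol synthesis was lowest in libraries 4 and 8.

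**Figure D5:**
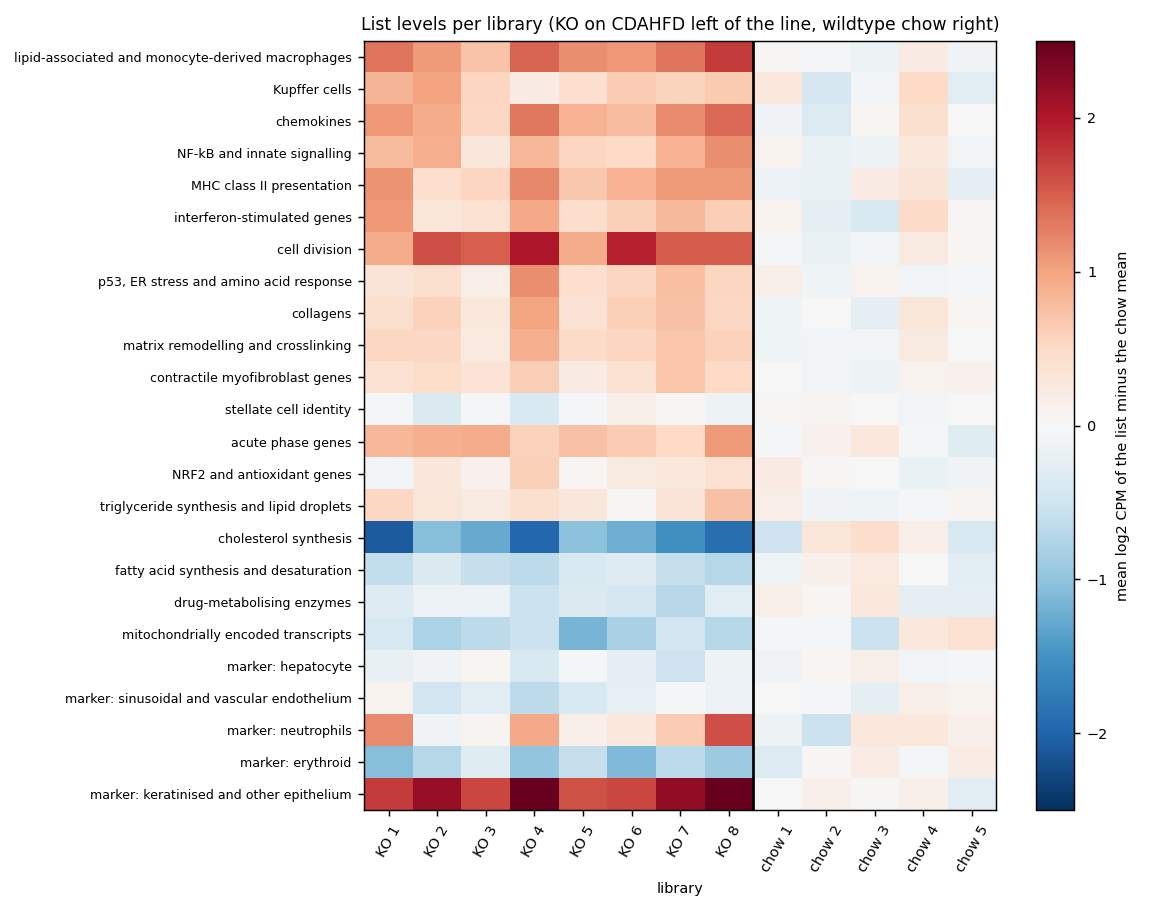
Mean log2 CPM of each list's tested members per library minus the mean of the WT chow libraries (colour scale), with KO CDAHFD libraries 1 to 8 left of the line and WT chow libraries 1 to 5 right of it. Cell division and epithelial genes are above the chow mean, and cholesterol synthesis below it, in all 8 KO libraries, while the strength differs between libraries.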

How the data were processed

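Total RNA of mouse liver was extracted with a column kit and made into libraries with the NEBNext Ultra II kit, per the labels' protocols. The deposited table held estimated counts per gene for 55642 Ensembl gene IDs in 26 libraries; 55.2% of the values above 0 in the 13 libraries used were whole (tolerance 1e-09), and 0 columns were left unused. The submitters' processing notes name cutadapt 3.5, Salmon 1.4.0 and the builds GRCm39 and mm39, while the step that combines transcripts into genes is not described there. Symbols matched 92.5% of the IDs, which held 99.1% to 99.6% of each library's counts.

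The estimated counts were rounded and filtered with filterByExpr (minimum count 10), and 16090 genes were tested with edgeR 4.0.16 in R 4.3.3 (TMM, robust quasi-likelihood F test, glmTreat for the 2-fold test). DESeq2 1.42.0 and limma 3.58.1 served as alternatives. Single library measures used two-sided exact permutation tests of the 8 KO CDAHFD and 5 WT chow libraries. The libraries differ beyond sampling noise in every one of 38 pairs within a group (chi-square per degree of freedom at least 15.4), so all were kept.

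The members and gene lists were chosen with earlier results of these data known. Genes were named by a rule: Mtarc1 and Mtarc2, the 12 largest called rises and falls on the log2 scale, the 8 largest in CPM, and in each list at most 4 called members a direction, by lowest p, and the 2 members with the highest mean CPM. Not all of them are printed (some are not reported here), and members whose call was lost when 1 library was left out were passed over, except markers of other cells and Birc3. Promoters came from RefSeq tables (GRCm38.p6).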

Additional observations from a re-analysis of the deposited data

Results flagged for a closer look

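In 24 of 348 groups of values (172 genes and 2 library measures, the mitochondrial share and the share of the top 20 genes, each in both groups), 1 library stood far from the others of its group, where chance at 1 in 20 gives about 17.4. No test of a cause was run, and the values follow.

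KO CDAHFD library 4 was the highest of its group in 7 genes: Fgf21 at 94.7 CPM, Ly6d at 58.0 CPM, Gm3776 at 43.3 CPM, Gsta1 at 43.3 CPM, Mcm2 at 22.9 CPM, Ubd at 13.4 CPM and Phlda3 at 10.9 CPM. KO CDAHFD library 8 was the highest in 4: Lcn2 at 180.3 CPM, Mmp12 at 32.9 CPM, Gpnmb at 17.1 CPM and Tnfaip3 at 9.86 CPM. KO CDAHFD library 1 stood highest for Igf1 at 898 CPM and Serpina4-ps1 at 16.1 CPM, library 5 for Fn1 at 1538 CPM and Slc34a2 at 2.34 CPM, library 6 for Cyp3a16 at 4.31 CPM, and library 7 for Stat5a at 24.1 CPM.

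Among the WT chow libraries, library 1 stood highest for Gsta1 at 1.92 CPM and Gm3776 at 1.21 CPM. Chow library 3 stood highest for Ldha at 734 CPM and Sprr1a at 0.308 CPM and lowest for Apoc2 at 102 CPM, and chow library 4 stood highest for Cyp3a16 at 63.5 CPM and Cd68 at 11.1 CPM. Fn1 was not called; none of the other genes lost its call when that library, or any other single library, was left out.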

How the results depend on the processing

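Apart from the replicate block below, the number of called genes stayed within 1.5 times 3859 under other scalings, filters, tools and covariates. It lay between 2618 (mitochondrial share as a covariate) and 5459 (raw library totals). The genes behind these totals changed more. Of the 3859, 1714 were also called with the mitochondrial share as a covariate, 2677 with raw library totals and 3846 with DESeq2. Raw library totals, which lack the correction for composition that TMM makes, gave 4833 genes higher and 626 lower. The cause of this shift was not tested. The mitochondrial share as a covariate left 1119 lower. Leaving out 1 library at a time gave between 2556 and 4443 called genes, between 1518 and 2408 higher, between 1038 and 2035 lower, and between 53 and 124 past the 2-fold test. The difference in mitochondrial share within the libraries numbered from 11000 was -3.85 percentage points and did not pass (exact permutation test, p = 0.0571). The labels do not call the library numbers batches.

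Sample numbers are shared by the groups, but same-numbered samples deviated together weakly or not at all (correlations of 0.00, -0.03, 0.05, 0.17 and -0.30), and only 1 library correlated best with its own number, so the numbers were not read as pairs. Samples 1 to 5 with the number as a replicate block gave 1977 called genes, 1136 higher and 841 lower, and 60 past the 2-fold test; the same 10 libraries without the block, chosen after seeing the data, gave 2832 called genes and 56 past the 2-fold test. Genes that lost their calls with the block included Acot1, Fah, Fgf21, Gamt, Gsta1, Hp, Pdgfrb, Plin3, Serpina1e, Serpina4-ps1, Soat1 and mt-Nd4.

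No called gene named here changed direction under any setting, and those that lost a call when 1 library was left out were Birc3, Cd209a, Clec4g, Csf3r, Eng, Gzma, Kdr, Stab1 and Zbtb46. Other genes that lost theirs included Mup22 and Slc30a10 with no filter, and Hp and Siglech within the libraries numbered from 11000. Apoe was called with DESeq2 and without KO library 3, Mcm7 with the library number series as a covariate and without KO library 1, Fn1 without chow library 3, and Clec4f without chow library 4. Genes that were not called turned sign as follows, and the cause was not tested. With raw library totals the log2 fold change was 0.15 for Col18a1, 0.047 for Mat1a and 0.18 for Mtarc2. With the mitochondrial share as a covariate it was -0.41 for Cyp2e1, 0.11 for Dcn and -0.21 for Fn1. In samples 1 to 5 Mtarc2 was at 0.026 with the block and 0.031 without it. With 1 library left out, values lay between -0.0995 and 0.0257 for gene Col18a1, between -0.0442 and 0.271 for gene Cyp2e1, and between -0.0508 and 0.0535 for gene Mtarc2.

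The 5 chow libraries and the depth of 19.7 to 29.6 M counts limit small changes: a gene that was not called is not shown to be equal. All intervals are for the log2 fold change between the groups and rest on the variation among these libraries.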
